A study of Mus musculus with 12 samples.

Results

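Liver RNA was examined for 10 genes, out of 24296 genes with a symbol in the deposited table. They act on peroxides, superoxide or lipid radicals, or supply the lipids that become peroxidized. The genes were chosen by name, with earlier results of these data known. Every transcript that carries 1 of their symbols was taken, which gave 48 of 169430 transcripts. The 10 genes were Gpx4 and Gpx1, Aifm2, Acsl4 and Lpcat3, Sod1 and Sod2, Cat, Prdx1 and Prdx6. Values are FPKM, fragment numbers scaled to transcript length and to the depth of the library, and a gene sum is the sum of FPKM over the transcripts with the same symbol.

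The livers came from male C57/BL6N mice in 4 groups, with 3 livers sequenced in each. The control group has the label WT, and no treatment is stated for it. The model group received CCl4 in olive oil into the abdomen, at 5 mL/kg and 2 times a week for 8 weeks, which causes liver fibrosis. Mice of the 2 drug groups received the same CCl4 and, from week 5 on, either silibinin or the highest of the phloridzin doses. The mice were separate animals that were allotted to the groups at random. Depth in megafragments was 105 to 109.6 in the control group, 83.7 to 101 in the model group, 107 to 111 in the silibinin group and 98.4 to 105 in the phloridzin high-dose group, and the number of fragments of a gene sum ranged from 1617 to 25650 for Gpx4 and from 55 to 22193 for Sod2.

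Lipid peroxidation is a chain reaction in which polyunsaturated fatty acids of membrane phospholipids are oxidized, and iron speeds it up. Gpx4 is the selenium enzyme that reduces phospholipid hydroperoxides with glutathione, and its loss leads to the iron-dependent cell death called ferroptosis. In the liver, the cytochrome Cyp2e1 turns CCl4 into radicals that start lipid peroxidation.

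Of the 10 genes, Acsl4 showed the clearest group difference. It was higher in the model group than in the control group, and lower in both drug groups than in the model group. Gpx4 was higher in the phloridzin high-dose group than in the model group, by a call that was lost under 16 of 22 other settings. The other genes did not pass the test in any comparison, and in 3 of the 10 (Gpx4, Gpx1 and Sod2) the SD between livers of the same group was over 1 on the log2 scale, against a median of 0.24 over all genes with a mean of at least 5 FPKM.

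The table as a whole moved between the groups, and the member genes are read against it. Over the 13158 genes with a mean gene sum of at least 0.5 FPKM, the median log2 fold change was 0.34 in the model group relative to control livers. It was -0.15 with silibinin and -0.11 in the phloridzin high-dose group, each relative to model livers. Compared with the control group, it was 0.16 with silibinin and 0.18 with phloridzin. It was 0.03 between the drug groups. Fold changes are differences of log2(FPKM + 1), a scale that understates the change of low genes. Assembled transcripts, which have neither a symbol nor a position, held 25.5% to 29.8% of the summed FPKM in the control livers and 19.4% to 21.3% in the other 9 livers, with no overlap. Whether they hold fragments of the 10 genes was not tested.

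The label liver was checked with 6 hepatocyte markers. Alb was the most abundant of them, at 10970.5 to 29357 FPKM, and Hnf4a lay between 88.7 and 126 FPKM in all 12 livers. Ttr ranged from 10.3 to 2530 FPKM and Serpina1a from 61.8 to 1269 FPKM, so that a wide spread between livers also occurred among hepatocyte markers. The summed hepatocyte markers were 18459.6 ± 2842 FPKM in the control group, 21612 ± 5967 in the model group, 25850 ± 7585 in the silibinin group and 23376 ± 4166 in the phloridzin high-dose group (mean ± SD, n = 3 each). Of the 6, 1 was lower in the model group than in the control group, Cyp2e1, at 3679, 1373 and 3386 FPKM in the control livers and 475, 489 and 548 in the model livers (log2 -2.35, 3 of 3 livers, limma adjusted p = 0.00144).

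Some markers of other cell types were higher in the model group, a comparison in which 34.9% of all genes passed and most of these were higher. The 6 macrophage markers, with Lyz2 the most abundant, summed to 104 ± 31.0 FPKM in control livers and 326 ± 83.4 in model livers, and 3 of 6 passed the test (limma, adjusted p under 0.05). They summed to 330.1 ± 54.6 FPKM in the silibinin group and 383 ± 138 in the phloridzin high-dose group. The 6 stellate cell and myofibroblast markers, with Col3a1 the most abundant, summed to 12.1 ± 2.61 FPKM in control livers and 132 ± 19.0 in model livers, with 4 of 6 higher. In the silibinin group they summed to 110.1 ± 45.9 FPKM and in the phloridzin high-dose group to 108 ± 80.5. With phloridzin 1 of 6 was lower than in the model group, Lrat (log2 -0.83, limma adjusted p = 0.0149). In that comparison 12.9% of all genes passed, and most of these were lower. Acta2 (-0.16), Col1a1 (-0.55), Col1a2 (-0.29), Col3a1 (-0.51) and Pdgfrb (0.38) did not pass. The sums were 200.1, 69.8 and 52.8 FPKM in the phloridzin livers and 140.4, 133 and 57.3 FPKM in the silibinin livers, so that 1 liver carried much of the phloridzin mean.

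The 5 cholangiocyte markers (most abundant Spp1) summed to 13.7 FPKM in control livers and 50.7 in model livers, and 2 of the 3 tested were higher. They were Spp1 and Krt19, and Sox9 did not pass (limma adjusted p = 0.202). Spp1 alone made up most of the sum, at 9.50 to 14.6 FPKM in control livers and 42.3 to 49.9 in model livers. The 5 lymphocyte markers (most abundant Cd3e) summed to 1.55 and 3.89 FPKM, with 1 of 3 tested higher, which is close to the share of all genes. The 5 endothelial markers (most abundant Kdr) summed to 31.3 and 43.6 FPKM, the 5 neutrophil markers (most abundant S100a8) to 14.7 and 39.9 FPKM, and the 5 erythroid markers (most abundant Hbb-bs) to 1070.0 and 726 FPKM, and of these lists none of the 5, 2 and 5 markers that were tested passed in this comparison (limma, adjusted p under 0.05). With values scaled by median ratios, 1 of 6 macrophage, 4 of 6 stellate cell, 1 of 3 cholangiocyte and 0 of 3 lymphocyte markers were higher and 2 of 5 erythroid markers were lower. No marker of the 8 lists was at 0 in all 12 livers. In bulk RNA, fewer cells of a type and less RNA per cell cannot be told apart, and the part of cell types in the results on the 10 genes was not tested.

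**Figure D1:**
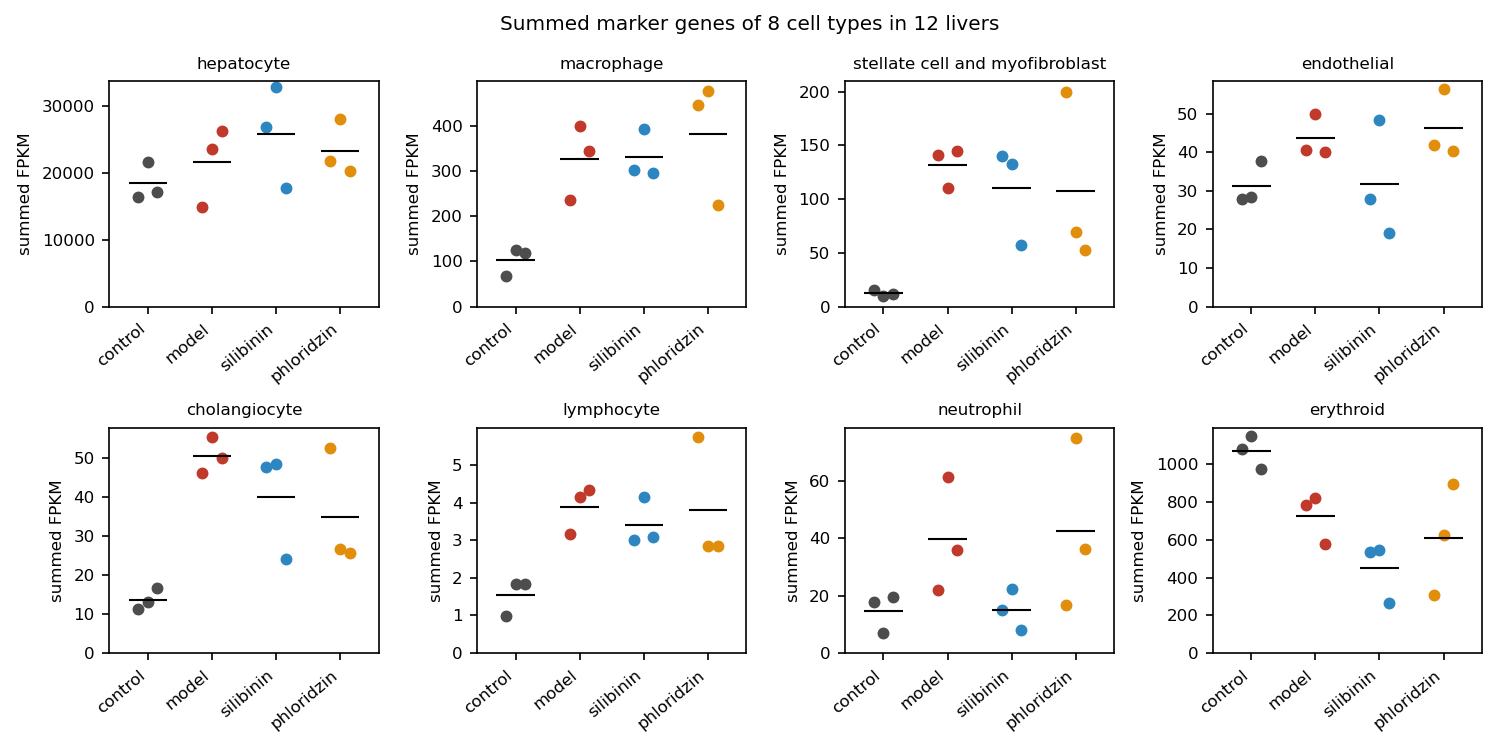
Summed FPKM of marker genes of 8 cell types (vertical axes, from 0) in the 12 livers by group. Points are livers and lines are group means. The macrophage sum was 68.4 to 125 FPKM in the control livers and 235 to 399 FPKM in the model livers.

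Over the 12 livers, the mean gene sum was 693 FPKM for Cat, 361 for Prdx1, 291 for Sod1, 254 for Gpx1, 172 for Prdx6 and 120.0 for Gpx4. It was 16.8 FPKM for Sod2, 13.3 for Lpcat3, 10.1 for Acsl4 and 6.14 for Aifm2. The ranges of all 9 pairs of neighbours in this order overlapped. Cat was above Prdx1 in 12 of 12 livers, Prdx1 above Sod1 in 10, Gpx4 above Sod2 in 11 and Acsl4 above Aifm2 in 11. The order held in fewer livers between Sod1 and Gpx1 (5 of 12), Gpx1 and Prdx6 (7), Prdx6 and Gpx4 (8), Sod2 and Lpcat3 (6), and Lpcat3 and Acsl4 (9). In part it turned with the group. Acsl4 was above Lpcat3 in the 3 model livers only, and Gpx4 was above Prdx6 in the 3 phloridzin livers and silibinin liver 3. The order of Acsl4, Sod2 and Lpcat3 depended on the transcripts summed. NONCODE transcripts that lie inside a gene, on its strand, carry no symbol and are not in these sums. With them added, Acsl4 and Sod2 were each above Lpcat3 in every liver. In the control livers Acsl4 was then at 25.4, 22.1 and 17.4 FPKM and Lpcat3 at 16.8, 15.1 and 9.47.

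**Figure D2:**
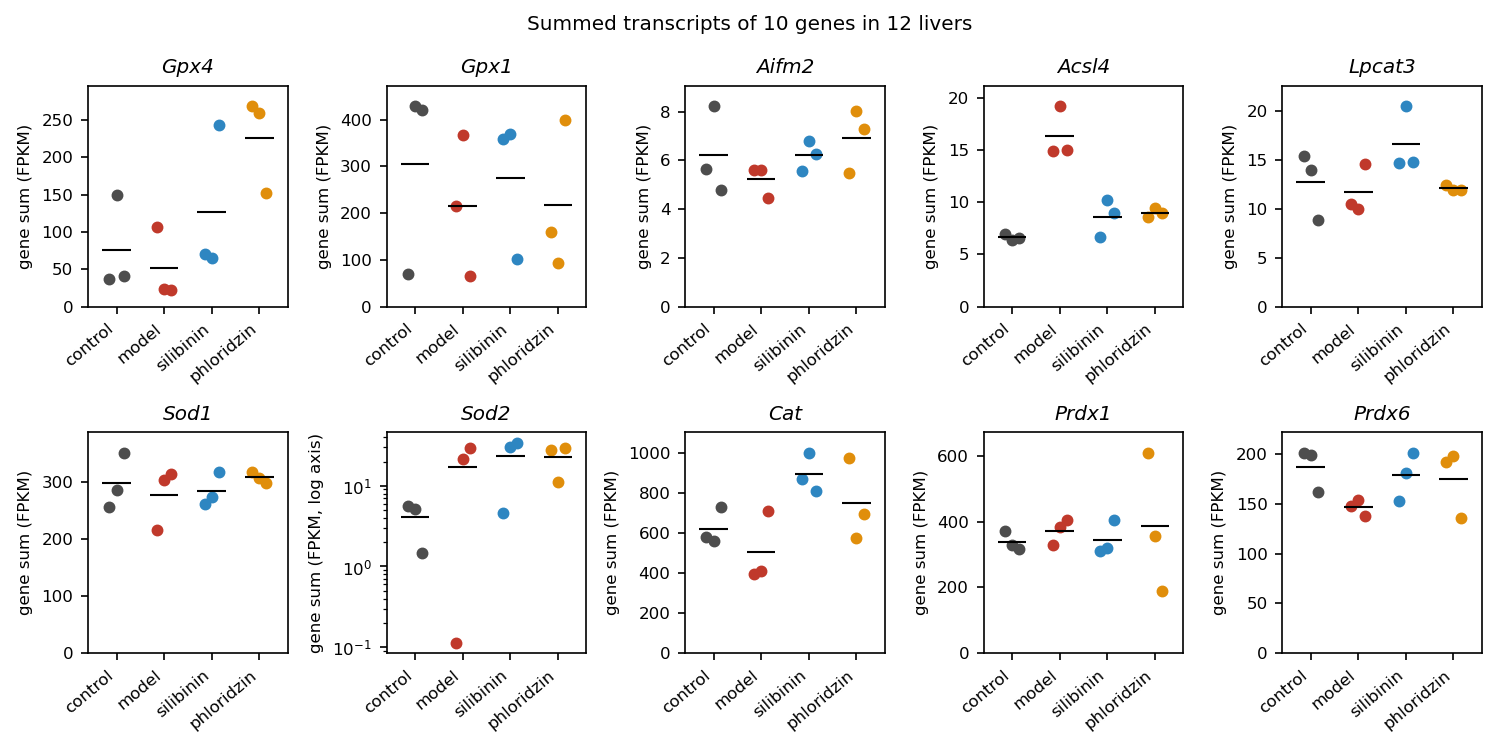
Gene sums in FPKM (vertical axes, a log axis for Sod2) of the 10 genes in the 12 livers by group. Points are livers and lines are group means. The 3 model livers had 14.9 to 19.2 FPKM of Acsl4, above all 9 other livers, and Sod2 ranged from 0.113 to 34.4 FPKM.

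Gpx4 (ENSMUSG00000075706, chr10:80047166-80056439, plus strand, GRCm38) had a gene sum of 37.5, 149 and 41.2 FPKM in the control livers, 107, 24.1 and 22.1 in the model livers, 70.0, 64.7 and 244 in the silibinin livers, and 269, 259 and 152 in the phloridzin livers. The phloridzin livers were all above the model livers and all above the control livers, while the silibinin group overlapped with each other group. Within the groups the livers differed widely, with 1 high liver in the control, model and silibinin groups. The SD within groups was 1.02 on the log2 scale, and only 3.78% of 6059 genes with a mean of at least 5 FPKM had a larger one (median 0.24). Means ± SD were 76.0 ± 63.4 FPKM in the control group, 51.2 ± 48.6 in the model group, 126 ± 102 in the silibinin group and 227 ± 65.0 in the phloridzin high-dose group (n = 3 each).

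Compared with the model group, Gpx4 rose in the phloridzin high-dose group by a log2 fold change of 2.47 (SE 0.73, 95% confidence interval 0.86 to 4.08, 2.58 above the median of all genes), and 3 of 3 phloridzin livers were above every model liver (limma, Benjamini-Hochberg adjusted p = 0.0494). The call held in 6 of 22 other settings, in which the adjusted p ranged from 0.0210 to 0.149 (limma). It was lost when any phloridzin liver was left out, and also without control liver 1 or 3, model liver 2 or 3, or silibinin liver 1 or 2, with log2 fold changes of 2.08 to 2.74. In the silibinin group Gpx4 was 1.40 above the model group on the log2 scale (SE 0.73, limma adjusted p = 0.236) and did not pass the test. In the model group it was -0.65 relative to the control group (limma adjusted p = 0.514, lower in 2 of 3 livers than any control liver).

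The Gpx4 sum came from 7 transcripts, of which 3 protein-coding ones held most. Gpx4-202 (ENSMUST00000105372, 959 bases) was listed at 4.88, 67.9 and 3.85 FPKM in the control livers, 38.6, 1.05 and 1.40 in the model livers, 43.3, 40.5 and 123 in the silibinin livers, and 135, 191 and 40.003 in the phloridzin livers. Gpx4-201 (ENSMUST00000097227, 995 bases) was at 14.5, 55.7 and 0.193 FPKM in the control livers, 0.673, 0.357 and 0.442 in the model livers, 0.631, 0.816 and 72.9 in the silibinin livers, and 91.2, 0.777 and 63.8 in the phloridzin livers. Gpx4-207 (ENSMUST00000183037, 735 bases) was the steadiest of the 3, with 16.0 to 65.8 FPKM over the 12 livers. It was at 16.0, 24.6 and 31.6 FPKM in the control livers and 65.8, 18.7 and 17.6 in the model livers. In the silibinin livers it was at 24.9, 21.8 and 47.1 FPKM, and in the phloridzin livers at 31.2, 59.4 and 45.4. Its highest value was thus in model liver 1, and the phloridzin and model livers overlapped. Gpx4-201 was thus either under 1 FPKM (7 livers) or at 14.5 FPKM and more (5 livers).

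None of these transcripts passed the test across all transcripts. Gpx4-202 was 4.14 above the model group in the phloridzin high-dose group on the log2 scale, in 3 of 3 livers (limma adjusted p = 0.105). The transcripts of a gene share most of their sequence, and how fragments common to several of them were divided is not given in the sources used here. Processed copies of Gpx4 and Prdx6 exist in the mouse genome, and fragments shared with them were not separated.

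Gpx1 (ENSMUSG00000063856, chr9:108338903-108340343, plus strand), the cytosolic glutathione peroxidase that reduces hydrogen peroxide, was at 68.8, 429 and 421 FPKM in the control livers, 216, 367 and 66.1 in the model livers, 358, 369 and 101 in the silibinin livers, and 160, 93.6 and 400 in the phloridzin livers. The lowest liver of each group lay between 66.1 and 101 FPKM and the highest between 367 and 429 FPKM, so that all groups overlapped. The spread was carried by Gpx1-201 (ENSMUST00000082429, 1072 bases), which was at 9.23 to 15.05 FPKM in 4 livers, 1 of each group, and at 81.0 to 368 FPKM in the other 8. Gpx1-202 (ENSMUST00000191997, 787 bases) lay between 39.7 and 84.3 FPKM in all livers. The SD of Gpx1 within groups was 1.23 on the log2 scale, and 2.36% of genes had a larger one. No comparison passed the test, and the log2 fold change compared with the model group was 0.45 in the silibinin group (95% confidence interval -1.51 to 2.40) and 0.06 in the phloridzin high-dose group (-1.89 to 2.02).

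**Figure D3:**
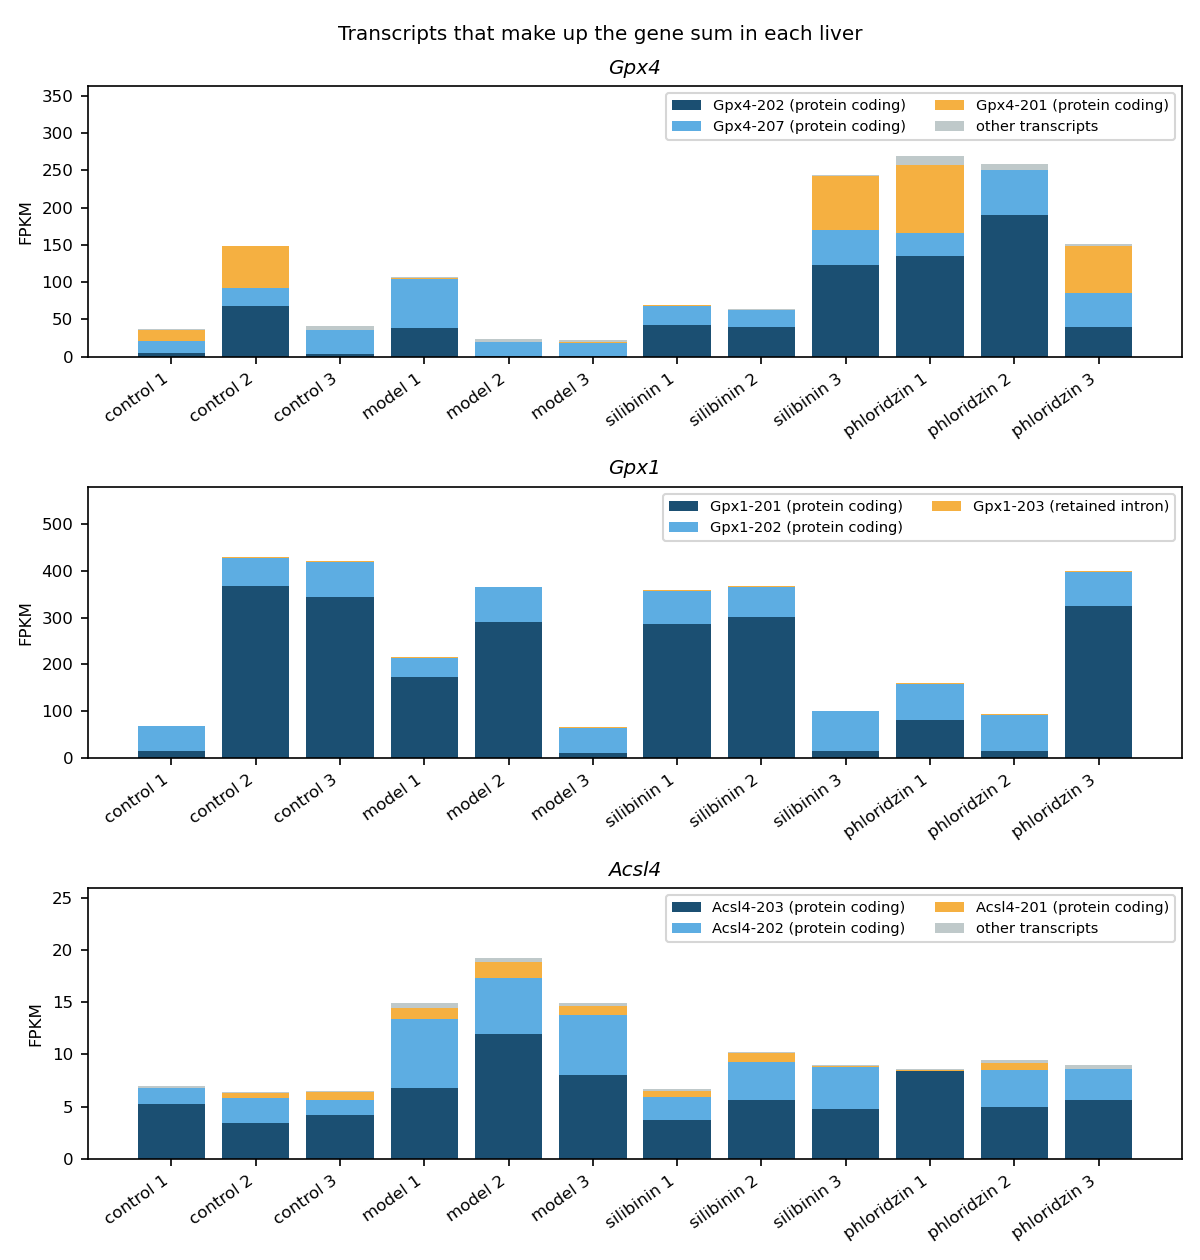
FPKM (vertical axes, from 0) of the transcripts of Gpx4, Gpx1 and Acsl4, stacked to the gene sum, in each of the 12 livers. Gpx1-201 was at 9.23 to 15.05 FPKM in 1 liver of each group, and Gpx4-201 was under 1 FPKM in 7 livers.

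Gpx4 and Gpx1 are both selenoproteins, in which a TGA codon inside the reading frame is read as selenocysteine, the amino acid at the catalytic site. Their transcripts are shown here around that codon, since it is the feature the 2 peroxidases share. The 51 bases are from GRCm38, 5′ to 3′ on the plus strand, in lower case with the TGA codon in capitals. The codon was number 73 of 197 in Gpx4-202 (chr10:80054713-80054763, exonic and coding) and number 47 of 201 in Gpx1-201 (chr9:108339427-108339477, exonic and coding).
Gpx4: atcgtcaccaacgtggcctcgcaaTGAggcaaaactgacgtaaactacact
Gpx1: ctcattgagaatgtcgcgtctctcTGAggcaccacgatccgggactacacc

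Of 8 genes for selenoprotein synthesis, all of which were tested, Secisbp2, whose protein binds the RNA element that directs selenocysteine insertion, rose in the model group by 0.80 on the log2 scale. Sephs2, which makes the selenium donor, fell by 0.74 (limma adjusted p = 0.00271 and 0.00789, 3 of 3 livers each). Secisbp2 fell by 1.04 with silibinin and by 0.89 with phloridzin, and Sephs2 rose by 0.77 and 0.69, each relative to the model group and in 3 of 3 livers (limma adjusted p = 0.00164, 0.00399, 0.0137 and 0.0251). The same 3 model livers enter all of these differences, so that opposite signs arise in part from them alone. The 2 genes are 2 of 8 in each of these comparisons, in which 34.9% (model), 14.1% (silibinin) and 12.9% (phloridzin) of all genes passed. The other 6 genes did not pass the test in these comparisons as deposited. With values scaled by median ratios, Secisbp2 no longer passed the test in the model group (0.41, limma adjusted p = 0.0925, 3 of 3 livers higher as deposited), and Selenop passed as lower (-0.73).

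Aifm2 (ENSMUSG00000020085, chr10:61715263-61739260, plus strand), also called FSP1, reduces coenzyme Q to a form that traps lipid radicals. Its mean gene sum over the 12 livers was the lowest of the 10, although that of Sod2 was lower in the control group (4.10 against 6.22 FPKM). Aifm2 was at 4.78 to 8.23 FPKM in the control livers, 4.46 to 5.60 in the model livers, 5.58 to 6.78 in the silibinin livers and 5.47 to 8.03 in the phloridzin livers. All groups overlapped, and no comparison passed the test. The log2 fold change was -0.19 in the model group relative to control livers, and 0.21 (silibinin) and 0.34 (phloridzin) relative to model livers.

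Acsl4 (ENSMUSG00000031278, chrX:142317993-142390535, minus strand) activates arachidonic and other polyunsaturated fatty acids for use in phospholipids. Its gene sum was 6.97, 6.37 and 6.52 FPKM in the control livers, 14.9, 19.2 and 14.95 in the model livers, 6.66, 10.2 and 8.94 in the silibinin livers, and 8.55, 9.43 and 9.00 in the phloridzin livers. The 3 model livers were above all others. The phloridzin livers lay above the control livers without overlap, and the silibinin livers overlapped with both. The SD within groups was 0.18 on the log2 scale, and 71.3% of genes had a larger one.

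Acsl4 rose in the model group relative to control livers by 1.18 on the log2 scale (SE 0.15, 95% confidence interval 0.84 to 1.52, 0.84 above the median of all genes), from 6.62 ± 0.313 to 16.4 ± 2.46 FPKM (mean ± SD, n = 3, higher in 3 of 3 livers, limma, Benjamini-Hochberg adjusted p = 0.00043). Compared with the model group, it fell by 0.86 with silibinin (SE 0.15, 3 of 3 livers lower, limma adjusted p = 0.00535). It fell by 0.79 with phloridzin (SE 0.15, 3 of 3 livers lower, limma adjusted p = 0.00857). Relative to the median of all genes these differences were -0.71 and -0.68. The first call held in 22 of 22 other settings, with log2 fold changes of 0.77 to 1.61. Each of the other calls held in 21 of 22, a number that does not count the setting with a log2 fold change beyond 1, under which both were lost. Among the 22, each was lost with the most abundant transcript alone (-0.78 and -0.44, limma adjusted p = 0.0784 and 0.325, from ranges of 0.00156 to 0.0784 and 0.00415 to 0.325).

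Acsl4-203 (ENSMUST00000112904, 4959 bases) held 59.7% of the gene sum over the 12 livers and Acsl4-202 (ENSMUST00000112903, 4956 bases) 32.5%. Acsl4-203 was at 5.21, 3.47 and 4.21 FPKM in the control livers, 6.81, 11.9 and 8.02 in the model livers, 3.75, 5.61 and 4.75 in the silibinin livers, and 8.37, 4.93 and 5.63 in the phloridzin livers. Acsl4-202 was at 1.55, 2.38 and 1.39 FPKM in the control livers, 6.58, 5.41 and 5.76 in the model livers, 2.20, 3.67 and 4.06 in the silibinin livers, and 0, 3.62 and 2.94 in the phloridzin livers. The model livers were highest for Acsl4-202, and for Acsl4-203 phloridzin liver 1, in which Acsl4-202 is listed at 0, lay among them. Acsl4-203 rose in the model group relative to control livers (log2 0.89, 3 of 3 livers, limma adjusted p = 0.0421). The call held in 2 of 7 other settings and in 3 of 12 fits without 1 liver, and was lost with no filter, only the 2 groups, the replicate block, median-ratio scaling or a fold change beyond 1 asked for. Acsl4-202 missed the threshold (1.33, 3 of 3 livers, limma adjusted p = 0.0931).

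Lpcat3 (ENSMUSG00000004270, chr6:124663027-124704418, plus strand) places polyunsaturated fatty acids into lysophospholipids. Its gene sum was 15.4, 13.96 and 8.85 FPKM in the control livers, 10.53, 10.03 and 14.6 in the model livers, 14.7, 20.5 and 14.8 in the silibinin livers, and 12.4, 11.96 and 11.96 in the phloridzin livers. The silibinin livers were all above the model livers and all above the phloridzin livers. The difference from the model group was 0.47 (SE 0.21, higher in 3 of 3 livers, limma adjusted p = 0.168), which did not pass the test, and with values scaled by median ratios it was 0.67 (limma adjusted p = 0.0448, from a range of 0.0448 to 0.400 over the other settings). Most of the Lpcat3 sum came from transcripts annotated as retained introns, led by Lpcat3-205 (mean 5.55 FPKM), and the protein-coding Lpcat3-201 had a mean of 0.0121 FPKM.

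**Figure D4:**
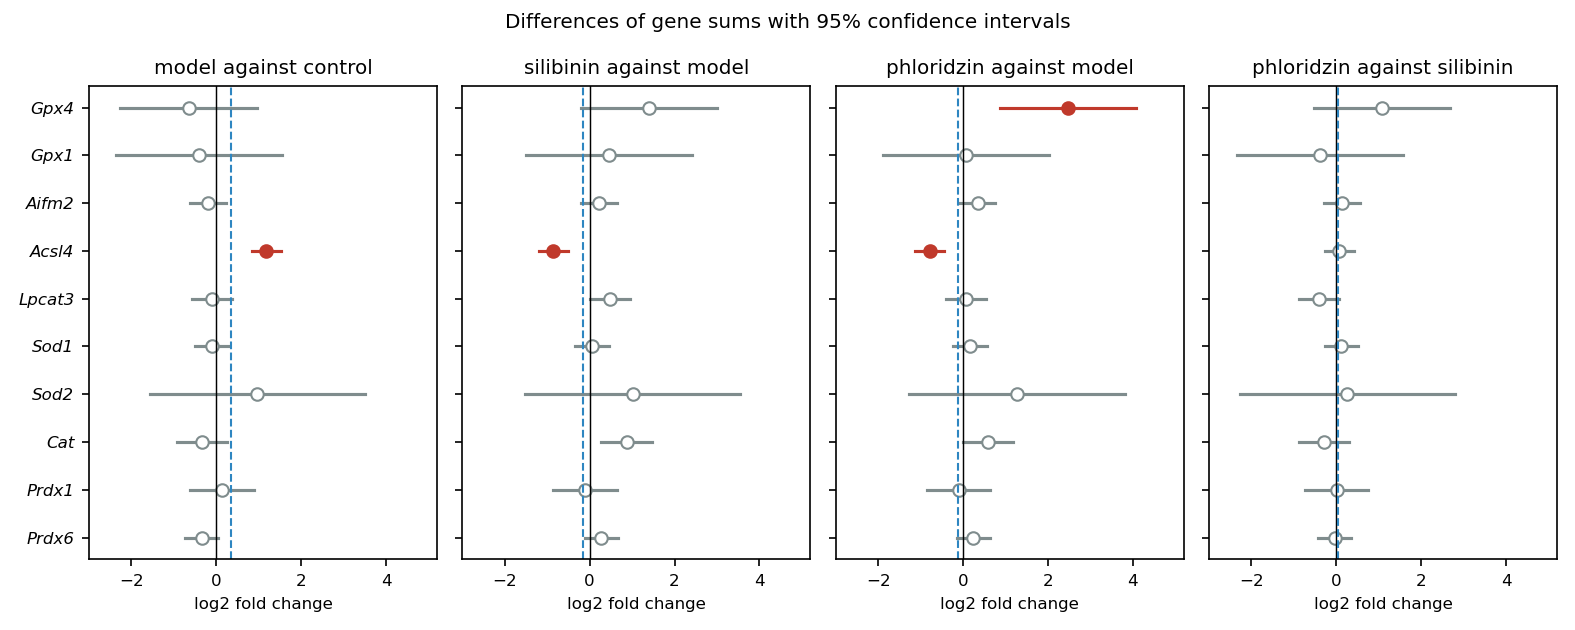
Log2 fold changes of the 10 gene sums (horizontal axis) with 95% confidence intervals in 4 comparisons. Filled red points passed the test, and the dashed line is the median of all 13158 genes. Acsl4 was at 1.18, -0.86 and -0.79 in the 3 comparisons that include the model group, and the interval of Gpx4 with phloridzin reached from 0.86 to 4.08.

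Sod1 and Sod2 turn superoxide into hydrogen peroxide, Sod1 in the cytosol and Sod2 in mitochondria. Sod1 (ENSMUSG00000022982, chr16:90220742-90226322, plus strand) had 1 transcript in the table, and its SD within groups was 0.20 on the log2 scale. It was at 256 to 351 FPKM in the control livers, 216 to 313 in the model livers, 260.1 to 317 in the silibinin livers and 298 to 317 in the phloridzin livers. The groups overlapped in each comparison, and the log2 fold changes lay between -0.11 and 0.17. None passed the test.

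Sod2 (ENSMUSG00000006818, chr17:13007839-13018119, plus strand) also had 1 transcript with its symbol. It was at 5.60, 5.22 and 1.49 FPKM in the control livers, 0.113, 21.3 and 29.6 in the model livers, 4.58, 30.5 and 34.4 in the silibinin livers, and 27.4, 11.2 and 29.8 in the phloridzin livers. The highest value was 306 times the lowest, and only 1.01% of genes had a larger SD within groups than its 1.61 on the log2 scale. The phloridzin livers were above the control livers without overlap, by 2.24 (limma adjusted p = 0.263), and the model group differed from the control group by 0.96 (higher in 2 of 3 livers, limma adjusted p = 0.542). Without model liver 1 that difference was 2.48 (higher in 2 of 2 livers, limma adjusted p = 0.0415, from a range of 0.0415 to 0.962 over the other settings). A NONCODE transcript inside the gene, on its strand, was at 21.04 to 34.6 FPKM in 11 livers and 0.303 in model liver 2. With it added, Sod2 was at 21.6 to 69.0 FPKM, and the model group differed from the control group by -0.11 (limma adjusted p = 0.817, from the same range). This sum was chosen after the values were seen.

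Cat (ENSMUSG00000027187, chr2:103453849-103485160, minus strand), catalase, breaks down hydrogen peroxide in peroxisomes, and was the most abundant of the 10 genes. It was at 577, 559 and 729 FPKM in the control livers, 394, 411 and 711 in the model livers, 871, 1001 and 811 in the silibinin livers, and 975, 576 and 696 in the phloridzin livers. The silibinin livers were above all control and all model livers. The difference of silibinin from the model group, 0.87 (SE 0.27, 95% confidence interval 0.28 to 1.47, higher in 3 of 3 livers), missed the threshold (limma, Benjamini-Hochberg adjusted p = 0.0543). It passed in 3 of 22 other settings, in which the adjusted p ranged from 0.0195 to 0.168 (limma, log2 0.72 to 1.15). These were scaling by median ratios (1.09, limma adjusted p = 0.0218), leaving out model liver 3 (1.15, 0.0195) and leaving out phloridzin liver 1 (0.87, 0.0337). With phloridzin Cat was 0.59 above the model group (limma adjusted p = 0.184, higher in 1 of 3 livers than any model liver).

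Prdx1 and Prdx6 are thiol peroxidases of the cytosol, and Prdx6 also reduces phospholipid hydroperoxides. Prdx1 (ENSMUSG00000028691, chr4:116685544-116700822, plus strand) was at 317 to 373 FPKM in the control livers, 329 to 405 in the model livers, 313 to 406 in the silibinin livers, and 612, 357 and 189 in the phloridzin livers, which were both the highest and the lowest. It passed the test in no comparison. Of its 6 transcripts Prdx1-204 held 97.4% of the gene sum. Prdx1-206 (ENSMUST00000156145), a retained intron of 553 bases, rose from 1.73 ± 0.574 to 4.81 ± 2.09 FPKM in the model group (n = 3, log2 1.04, higher in 3 of 3 livers, limma adjusted p = 0.0453). This call held in 4 of 7 other settings, not with no filter, only the 2 groups or median-ratio scaling, and in 3 of 12 fits without 1 liver.

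Prdx6 (ENSMUSG00000026701, chr1:161240112-161251219, minus strand) was at 201, 199 and 162 FPKM in the control livers, 148, 154 and 138 in the model livers, 153, 181 and 202 in the silibinin livers, and 192, 199 and 136 in the phloridzin livers. The model livers were all below the control livers, by -0.35 (limma adjusted p = 0.151, 3 of 3 livers lower), which did not pass the test as deposited. Scaled by median ratios the difference was -0.79 (limma adjusted p = 0.00893, from a range of 0.00893 to 0.771 over the other settings). Prdx6-202, the main protein-coding transcript, held 51.0% of the gene sum, and its control and model livers overlapped (log2 -0.14, limma adjusted p = 0.793). Prdx6-208, annotated as nonsense-mediated decay, held 40.3%, at 76.6 ± 11.1 FPKM in control livers and 55.0 ± 11.7 in model livers. Its model livers were all below the control livers (log2 -0.48, limma adjusted p = 0.443). Prdx6-204 (ENSMUST00000139387), a processed transcript of 603 bases, was at 1.18, 1.44 and 2.29 FPKM in the control livers, 0.436, 0.425 and 0.762 in the model livers, 3.37, 3.05 and 1.49 in the silibinin livers, and 2.21, 2.77 and 1.67 in the phloridzin livers. It held 1.02% of the gene sum, and the model livers were the 3 lowest. It rose compared with the model group by 1.20 with silibinin and 1.05 with phloridzin (3 of 3 livers each, limma adjusted p = 0.0240 and 0.0401). Each call held in 4 of 7 other settings and was lost with no filter, only the 2 groups or the replicate block. Of 12 fits without 1 liver, the silibinin call held in 8 and the phloridzin call in 3.

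Promoter windows, from 250 bases before to 50 bases after a gene's start, were matched by symbol in RefSeq (GRCm38.p6) for 9 of the 10 genes, in 12 windows. Prdx6 had no window. The only Aifm2 window lay at the start of Aifm2-202, which held 0.64% of the gene sum, and not at that of the most abundant Aifm2-203. The 12 windows thus do not cover the main start of every gene. They were searched on both strands for TGACNNNGC, the core of the antioxidant response element. It was in 2441 of 17631 windows (13.8%) of the genes in the table and in 2 of the 12, those of Prdx1 (chr4:116685349-116685648, plus strand, first base of the match at -133 from the start) and Sod1 (chr16:90220512-90220811, plus strand, at -56). Neither gene passed the test in any comparison. The window of Acsl4 (chrX:142390486-142390785, minus strand), the gene called in 3 comparisons, is shown with them and held no match. The sequences are 5′ to 3′ on the strand of the gene, with the match, which lies on the opposite strand in both, in capitals.
Prdx1: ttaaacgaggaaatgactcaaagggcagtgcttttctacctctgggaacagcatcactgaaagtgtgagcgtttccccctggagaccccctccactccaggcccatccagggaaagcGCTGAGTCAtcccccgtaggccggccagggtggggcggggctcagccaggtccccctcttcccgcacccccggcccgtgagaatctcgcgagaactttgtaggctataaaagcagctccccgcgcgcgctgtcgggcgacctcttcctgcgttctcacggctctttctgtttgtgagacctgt
Sod1: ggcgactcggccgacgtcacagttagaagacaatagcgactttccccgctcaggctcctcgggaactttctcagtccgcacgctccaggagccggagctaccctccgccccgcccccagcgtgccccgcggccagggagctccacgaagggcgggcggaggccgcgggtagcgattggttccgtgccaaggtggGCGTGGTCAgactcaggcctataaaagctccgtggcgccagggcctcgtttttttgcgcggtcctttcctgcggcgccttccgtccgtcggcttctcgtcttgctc
Acsl4: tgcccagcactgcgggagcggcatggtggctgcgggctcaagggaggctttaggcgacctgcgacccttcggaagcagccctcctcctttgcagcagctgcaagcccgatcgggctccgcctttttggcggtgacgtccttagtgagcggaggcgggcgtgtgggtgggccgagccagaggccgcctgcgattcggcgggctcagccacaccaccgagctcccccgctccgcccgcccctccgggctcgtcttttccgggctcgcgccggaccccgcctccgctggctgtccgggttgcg

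Between the model and control groups, 1 of the 10 genes passed the test, Acsl4, against 34.9% of the 13158 genes tested (4094 higher and 500 lower, limma, adjusted p under 0.05). As deposited, the share of the 10 genes was thus below the share of all genes. Scaled by median ratios it was above it, with 3 of 10 against 3274 of 13086 genes. The median log2 fold change of the 10 as deposited was -0.15, and 3 were higher and 7 lower, while the median of all genes was 0.34. With values scaled by median ratios, 52.7% of the called genes were higher in place of 89.1%, and Cat (-0.79, limma adjusted p = 0.0450 from a range of 0.0450 to 0.657, 2 of 3 livers below every control liver as deposited) and Prdx6 passed beside Acsl4. Of 36 member transcripts with a mean of at least 0.5 FPKM, 2 passed, Acsl4-203 and Prdx1-206, against 14.2% of 50485 transcripts.

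Between the silibinin and model groups, 1 of the 10 genes passed, Acsl4, against 14.1% of all genes (345 higher and 1504 lower). The median log2 fold change of the 10 was 0.36, with 8 higher, while that of all genes was -0.15. With that scaling, 3 of the 10 passed against 1582 of 13086 genes, and 46.3% of all called genes were higher in place of 18.7%. Of the 36 transcripts, 1 passed, Prdx6-204, against 4.54% of all transcripts.

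Between the phloridzin high-dose and model groups, 2 of the 10 genes passed, Acsl4 and Gpx4, against 12.9% of all genes (329 higher and 1362 lower). The median of the 10 was 0.20, with 8 higher, and that of all genes -0.11. After median-ratio scaling, 43.0% of all called genes were higher in place of 19.5%. Of the 36 transcripts, 1 passed, Prdx6-204, against 4.4% of all transcripts. Both drug comparisons share the model livers with each other and with the comparison of model and control, so that the opposite directions of Acsl4 rest in part on the same 3 livers.

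The direct comparison of the drug groups asks whether phloridzin, a glucoside of a dihydrochalcone, and silibinin, a flavonolignan, differed in these genes. With 1 dose of each compound sequenced, the values stand side by side and no order of the compounds is drawn. None of the 10 genes passed (limma), 0 had an unadjusted p under 0.05 and voom called 0, against 0.0228% of all genes (3 of 13158). The difference of phloridzin from silibinin was 1.08 for Gpx4 (95% confidence interval -0.53 to 2.69) and 0.07 for Acsl4 (-0.27 to 0.41). Neither interval shows that the compounds act alike. None of the 36 transcripts passed (limma, 3 at an unadjusted p under 0.05, voom was not run on transcripts), against 0.0277% of all transcripts.

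Against the control group, the drug groups differ by CCl4 and the drug together. The number of all genes that passed moved with the fit. With silibinin it was 661, and 136 to 1235 with 1 liver left out. With phloridzin it was 1051, and 353 to 1280 with 1 liver left out. It was 159 with only the phloridzin and control groups fitted. With silibinin, 0 of the 10 genes passed (limma, 0 at an unadjusted p under 0.05, 0 by voom), against 5.02% of all genes. The lowest adjusted p was that of Acsl4, 0.263 (limma, log2 0.32, higher in 2 of 3 livers than any control liver). With phloridzin, 0 passed (limma, 2 at an unadjusted p under 0.05, 0 by voom), against 7.99% of all genes. The 2 were Gpx4 (log2 1.82, 95% confidence interval 0.21 to 3.43, limma adjusted p = 0.155) and Acsl4 (0.39, 0.05 to 0.73, limma adjusted p = 0.148), each higher in 3 of 3 livers. With the NONCODE transcripts inside the gene added, a sum chosen after the values were seen, Acsl4 passed in this comparison (0.72, limma adjusted p = 0.0203 from a range of 0.0203 to 0.628).

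Related genes were read from 10 lists with 91 genes, of which 90 were in the table and 78 were tested. Between the model and control groups, 22 of 78 passed (28.2%, against 34.9% of all genes), 18 higher and 4 lower, with a median log2 fold change of 0.28. Scaled by median ratios, 25 passed, against 3274 of 13086 genes, so that their share was then above that of all genes. Of the 25, 10 were higher and 15 lower, and 14 were called both ways. No called gene changed direction with the scaling. In glutathione supply, 4 of 7 tested genes rose (median 1.12, all genes 0.34). They were the cystine transporter subunits Slc7a11 (0.0107 FPKM in control livers and 6.64 in model livers, 2.90) and Slc3a2 (2.04), the glutathione-degrading Chac1 (1.38) and the glutathione synthase Gss (1.12), in 3 of 3 livers each (limma adjusted p = 4.2e-06, 7.7e-05, 0.000306 and 0.0145). Slc7a11 reached the filter only through its values in the model livers, so that its rise was set by the filter. The counts of 4 of 7 and 22 of 78 include it. Gss did not pass with scaled values (0.68, limma adjusted p = 0.0965).

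The next counts stand against the same 34.9% of all genes (4094 of 4594 called genes higher). Among the other glutathione peroxidases, 2 of 3 tested genes rose, the secreted Gpx3 (1.14) and the endoplasmic reticulum enzyme Gpx8 (0.76), and neither passed with scaled values. Of 6 peroxiredoxins and superoxide dismutases, Prdx4 of the endoplasmic reticulum rose (0.62, not with scaled values) and Ccs, the copper chaperone of Sod1, fell by 0.76. None of 10 thioredoxin and glutaredoxin genes passed. Of 14 genes of coenzyme Q synthesis and other radical trapping, Pdss1 rose (0.66, not with scaled values) and Coq8a, a kinase-like protein of coenzyme Q synthesis, fell by 1.31. With scaled values Coq3 (-0.82), Coq5 (-0.42), Dhodh (-0.64), Pdss2 (-0.62) and Prdx2 (-0.45) passed as lower too.

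In polyunsaturated phospholipid supply, 4 of 12 tested genes rose and none fell, close to the 34.9% of all genes that passed in this comparison, and the same holds for the 2 of 5 and 3 of 9 given next. They were the stearoyl-CoA desaturase Scd1 (20.8 ± 2.88 FPKM in control livers and 331 in model livers, 3.84), the acyl-CoA synthetase Acsl3 (1.08), and the lysophospholipid acyltransferases Lpcat2 (0.68) and Lpcat1 (0.60). With scaled values Lpcat2 did not pass (0.38), and Acsl1 (-1.32) and Agpat3 (-0.63) passed as lower. Scd1 makes monounsaturated fatty acids. Of 5 tested lipid oxidation enzymes, the reductase Cyb5r1 (3.22) and the phagocyte oxidase subunit Cybb (1.51) rose. Of 9 iron handling genes, Hmox1 (1.84) and Tfrc (1.07) rose and the ferrireductase Steap3 fell by 0.72, and of 4 regulators Trp53 rose (0.79, not with scaled values). With scaled values Aco1 (-0.58) and Ireb2 (-0.71) of iron handling and the oxidase Nox4 (-0.53) passed as lower. The macrophage markers moved in the same comparison, and Cybb is itself expressed in phagocytes.

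In the comparison of silibinin with the model, 13 of the 78 genes passed (16.7%, against 14.1% of all genes), 5 higher and 8 lower, with a median of -0.03. Scaled by median ratios, 17 passed, against 1582 of 13086 genes, a share also above that of all genes. Of the 17, 9 were higher and 8 lower, and all 13 were among them. The others were Coq3 (0.63), Dhodh (0.74), Pdss2 (0.51) and Agpat3 (0.45). Slc7a11 fell by 2.76, Slc3a2 by 2.17 and Chac1 by 1.49, which were 3 of 7 genes of glutathione supply. Slc7a11 was tested only through its values in the model livers, so that its fall was set by the filter. Cyb5r1 fell by 2.35, Hmox1 by 1.36, Trp53 by 1.08 and Acsl3 by 0.92. Coq8a rose by 2.00, Steap3 by 1.04, Ccs by 0.59 and Aco1, an iron sensor and aconitase, by 0.42, while no glutathione peroxidase, thioredoxin or glutaredoxin gene passed (limma, adjusted p under 0.05).

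Between the phloridzin high-dose and model groups, 9 of the 78 passed (11.5%, against 12.9% of all genes), 3 higher and 6 lower, with a median of 0.08. Scaled by median ratios, 14 passed, against 1444 of 13086 genes, so that their share was then above that of all genes. Of the 14, 9 were higher and 5 lower, and 8 were called both ways. Slc7a11 fell by 2.74, Slc3a2 by 1.82, Chac1 by 1.31, Cyb5r1 by 1.84 and Acsl3 by 0.63, of which Acsl3 did not pass with scaled values. The fall of Slc7a11 was again set by the filter, which it reached only through the model livers. Steap3 rose by 0.90 and Ccs by 0.62. Coq8a was 1.22 above the model group and passed only with scaled values (1.40), as did Coq3 (0.55), Coq7 (0.54), Gch1 (0.99), Pdss2 (0.50) and Aco1 (0.50). It was at 60.4, 101 and 47.3 FPKM in the control livers, 39.0, 15.6 and 28.6 in the model livers, 94.1, 126 and 103 in the silibinin livers, and 48.1, 105 and 47.2 in the phloridzin livers, so that the model livers were the 3 lowest of 12.

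**Figure D5:**
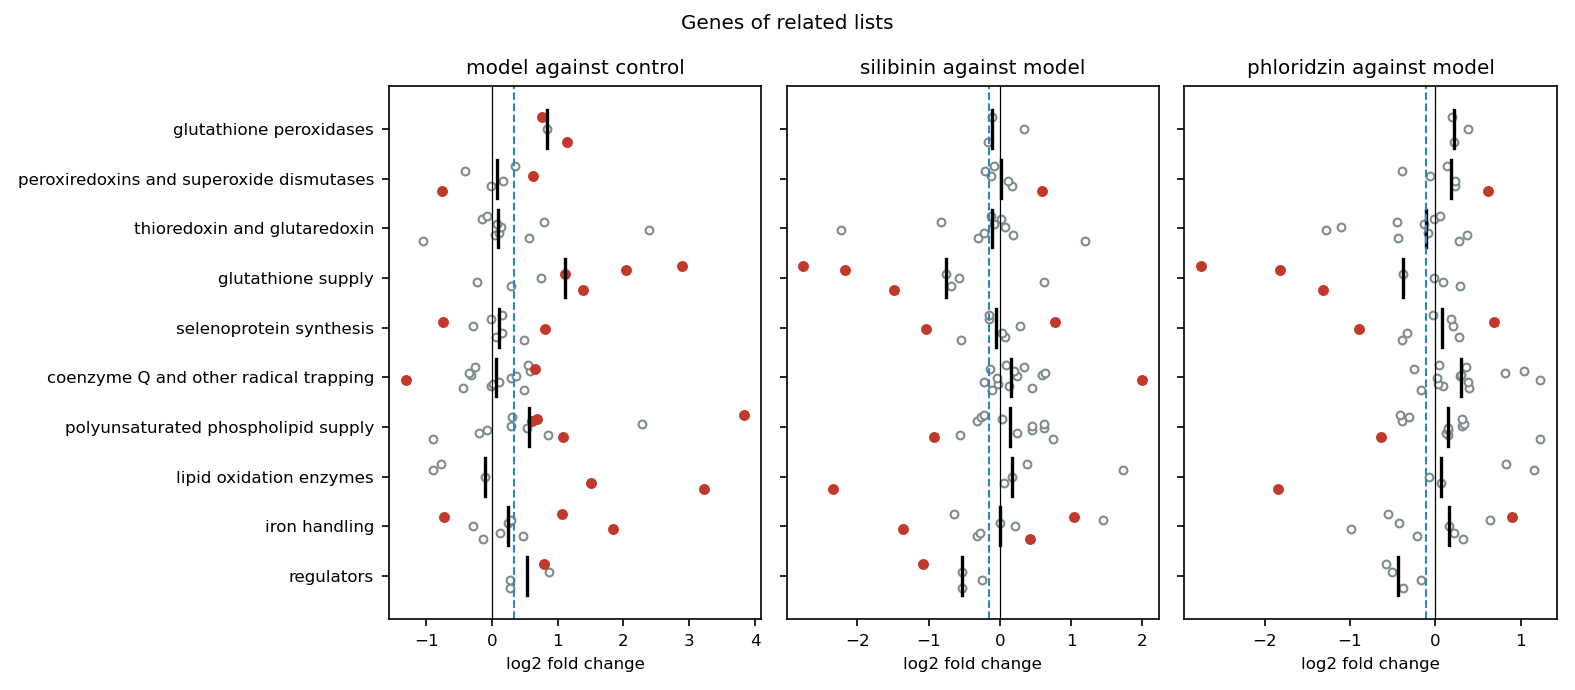
Log2 fold changes (horizontal axes) of 78 tested genes in 10 related lists in 3 comparisons. Filled red points passed the test, short black lines are list medians and the dashed line is the median of all genes. In glutathione supply, 4 of 7 genes rose in the model group and 3 of 7 fell in each drug group. These counts include Slc7a11, which reached the filter only through the model livers.

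In the direct comparison of the drug groups, none of the 78 genes passed (limma, 2 at an unadjusted p under 0.05, voom not read for these lists), with a median of 0.05. Compared with the control group, 5 of 78 rose with silibinin (6.41%, against 5.02% of all genes called) and 4 with phloridzin (5.13%, against 7.99%), and none fell. Scd1 (3.62 and 3.43), Cybb (1.57 and 1.58) and Lpcat2 (0.72 and 1.00) were among them in both groups. Elovl5 (1.14) and Fads1 (0.75), an elongase and a desaturase of polyunsaturated fatty acids, rose with silibinin, and Gpx8 (0.95) with phloridzin. Scaled by median ratios, Scd1 and Cybb with silibinin and all 4 genes with phloridzin passed.

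The pattern of Gpx4 over the 12 livers was compared with that of the 6058 other genes with a mean of at least 5 FPKM, as a description. The most alike were Ermp1 (Pearson r = 0.83), Rpph1 (0.83), Fuom (0.83), Pigp (0.81) and Ugt2b1 (0.80). Among the 10 genes r to Gpx4 was highest for Aifm2 (0.63) and Prdx6 (0.47) and lowest for Acsl4 (-0.35). Gpx1, the other selenium peroxidase, had an r of -0.03. The livers share their groups, so that group differences enter these values.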

How the data were processed

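RNA of 12 livers was sequenced. The authors deposited a single table of FPKM values for 169430 transcripts, made with bcl2fastq, FastQC 0.11.5, HISAT2 2.1.0 and StringTie 1.3.3b, and list DESeq 1.28.0. The table holds 82136 Ensembl, 68303 NONCODE and 18991 assembled transcripts, on GRCm38 (mm10). Depth was recovered from the steps between FPKM values of transcripts of at least 1500 bases. At least 98.93% of values then gave whole fragment numbers within 0.1.

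FPKM values of transcripts with the same symbol were summed, and genes were taken by symbol alone. The members and lists were chosen with earlier results of these data known. Log2(FPKM + 1) of 13158 genes with a mean of at least 0.5 FPKM was tested with limma 3.58.1 (trend, R 4.3.3 and version 1.17.8 of data.table), with 12 livers in 1 fit, 6 comparisons, Benjamini-Hochberg adjustment over all genes and an adjusted p under 0.05. Transcripts (50485) were tested likewise. The fit was run on simulated data in which noise was independent between genes and a set of genes was changed in 1 group. These data held no shift of the whole table between groups, so that they cannot show how the fit behaves under such a shift. Alternatives were a pseudocount of 0.1, no filter or a filter at 1 FPKM, a log2 fold change beyond 1, 2 groups alone, the replicate number as a block, median-ratio scaling, voom on recovered fragments, the most abundant transcript alone, and each liver left out. The sums with NONCODE transcripts inside the gene and of protein-coding transcripts only were added after the data were seen. Size factors were 0.820 to 0.885 in the control livers and 1.15 to 1.19 in the model livers.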

Additional observations from a re-analysis of the deposited data

Results flagged for a closer look

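The NONCODE transcripts that lie inside a member gene, on its strand, carry no symbol and were not part of the gene sums. Of 8 such transcripts, 5 passed the test between the model and control groups, against 14.2% of all transcripts, and they are listed here since the gene sums leave them out. NONMMUT074129.2, inside Acsl4, was at 16.8, 14.98 and 9.93 FPKM in the control livers, 42.9, 43.8 and 47.0 in the model livers, 17.6, 21.7 and 22.6 in the silibinin livers, and 30.1, 22.4 and 21.9 in the phloridzin livers. It rose in the model group by 1.64 on the log2 scale (3 of 3 livers, limma adjusted p = 0.00212). Inside Acsl4, NONMMUT074131.2 rose by 1.32 and NONMMUT074132.2 by 1.49 (3 of 3 livers each, limma adjusted p = 0.00206 and 0.00342). Inside Prdx1, NONMMUT048867.2 rose by 1.05 and NONMMUT048868.2 by 1.04 (3 of 3 livers each, limma adjusted p = 0.0304 and 0.0226). The other 3, inside Lpcat3 (0.33), Sod1 (0.21) and Sod2 (-1.69), did not pass. The cause was not tested, and whether these are separate RNAs or pieces of the genes around them was not tested.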

How the results depend on the processing

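Each comparison had 3 livers per group, and low transcripts rest on few fragments. Of 594 values under other settings, 546 kept their direction and their side of the threshold, 9 lost the call, 5 gained it and 34 changed direction. Of 720 values with 1 liver left out these numbers were 663, 9, 3 and 45. None of the reversed values passed the test. The cause was not tested. An effect past the threshold in 1 comparison and not in another is not shown to differ.

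Genes passing for model over control were 3 with median-ratio scaling, in place of 1. For silibinin over model, 1 became 0 with a log2 fold change beyond 1 also asked for or with the most abundant transcript alone, and 3 with median-ratio scaling. For phloridzin over model, 2 became 1 (Gpx4) with that fold change asked for. It became 1 (Acsl4) with a pseudocount of 0.1, no filter, only the 2 groups, the replicate block, voom, or protein-coding transcripts only, and 0 with the most abundant transcript alone. For phloridzin over control, 0 became 1 with NONCODE transcripts added. Transcripts passing for model over control, 2 as tested, were 1 (Prdx1-206) with the fold change asked for or the replicate block, and 0 with no filter. They were 1 with only the 2 groups (Acsl4-202) and 1 with median-ratio scaling (Prdx6-204), where both first calls were lost. In each drug group against the model group, 1 became 0 with no filter, only the 2 groups or the replicate block. With 1 liver left out, genes passing were 1 to 2 in each of these 3 comparisons, and transcripts 0 to 4 (model over control), 0 to 2 (silibinin over model) and 0 to 1 (phloridzin over model). The cause was not tested. Where a group kept 2 livers, the spread came from all groups.

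The replicate numbers of the labels gave no pairing. After group means were removed, livers with the same number had correlations of -0.091 to 0.10 over 18 pairs, and the livers closest to their own number were 1, 1, 0, 2, 3 and 1 of 3 in the 6 comparisons. As a replicate block, the number left Gpx4 for phloridzin over model at 2.47 (3 of 3 livers higher, limma adjusted p = 0.0867, from a range of 0.0210 to 0.149). All genes called then numbered 4351, 1664, 1455, 3, 506 and 819, in place of 4594, 1849, 1691, 3, 661 and 1051. With 1 liver left out, they ranged from 1110 to 2269 for silibinin over model and from 873 to 2090 for phloridzin over model. For silibinin over control they ranged from 136 to 1235, and for phloridzin over control from 353 to 1280. With only the 2 groups fitted, 622 passed for phloridzin over model and 159 for phloridzin over control. The scaling moved the balance of all called genes. For model over control, 4094 were higher and 500 lower as deposited, and 1727 higher and 1547 lower with median-ratio scaling. For silibinin over model these were 345 and 1504, then 732 and 850. For phloridzin over model they were 329 and 1362, then 621 and 823. The cause was not tested.

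Values that changed direction, as log2 fold changes, follow by setting. With voom they were Lpcat3 0.035 (model over control), Sod1 -0.028 (silibinin over model), Gpx1 -0.054 and Lpcat3 -0.15 (phloridzin over model), Prdx6 0.059 (phloridzin over silibinin), Gpx1 -0.050 and Prdx1 -0.049 (silibinin over control), Sod1 -0.013 and Prdx1 -0.046 (phloridzin over control). With the most abundant transcript alone they were Lpcat3 0.17 (model over control), Prdx6 -0.064 (silibinin over model), Gpx1 -0.14 and Lpcat3 -0.19 (phloridzin over model), Aifm2 -0.11 and Prdx6 0.22 (phloridzin over silibinin), Gpx1 -0.15 (silibinin over control), Prdx6 0.016 (phloridzin over control). With NONCODE transcripts added they were Sod2 -0.11 (model over control), Sod2 -0.10 (phloridzin over silibinin), Lpcat3 0.012 (phloridzin over control). With median-ratio scaling they were Prdx1 -0.32 (model over control), Prdx1 0.10 (silibinin over model), Prdx1 0.080 (phloridzin over model), Prdx1 -0.024 (phloridzin over silibinin), Gpx1 -0.20, Aifm2 -0.18, Prdx1 -0.21 (silibinin over control), Aifm2 -0.078, Sod1 -0.21, Cat -0.023, Prdx1 -0.24 (phloridzin over control). With protein-coding transcripts only they were Prdx6 -0.042 (silibinin over model), Prdx6 0.22 (phloridzin over silibinin), Prdx6 0.038 (phloridzin over control). The cause was not tested. Lpcat3 had no value with protein-coding transcripts only.

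With 1 liver left out, these genes held both directions. For model over control the ranges were Gpx1 -1.28 to 0.28, Lpcat3 -0.32 to 0.049, Sod1 -0.21 to 0.061. For silibinin over model the ranges were Gpx1 -0.24 to 1.06, Sod1 -0.12 to 0.14, Sod2 -0.51 to 1.88. For phloridzin over model the ranges were Gpx1 -0.63 to 0.60, Lpcat3 -0.032 to 0.22, Sod1 -0.0010 to 0.27, Sod2 -0.25 to 2.15, Prdx1 -0.51 to 0.33. For phloridzin over silibinin the ranges were Gpx1 -0.99 to 0.093, Acsl4 -0.082 to 0.20, Sod2 -0.60 to 0.73, Prdx1 -0.40 to 0.44, Prdx6 -0.14 to 0.14. For silibinin over control the ranges were Gpx1 -0.84 to 0.65, Aifm2 -0.12 to 0.21, Sod1 -0.16 to 0.064, Prdx1 -0.099 to 0.090, Prdx6 -0.17 to 0.036. For phloridzin over control the ranges were Gpx1 -1.22 to 0.13, Lpcat3 -0.26 to 0.11, Sod1 -0.040 to 0.19, Prdx1 -0.38 to 0.46, Prdx6 -0.21 to 0.066. The cause was not tested.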

Other observations

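Prdx6-206, a processed transcript, was at 23.1 FPKM in control liver 1 and 20.5 FPKM in silibinin liver 3 and was listed at 0 in the other 10 livers.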
